A study of Mus musculus with 2 samples.

Results

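The genes described here are 10 of the 32285 genes counted in the series: the simple keratins *Krt7*, *Krt8*, *Krt18* and *Krt19*, the epidermal keratins *Krt5*, *Krt14*, *Krt17*, *Krt6a* and *Krt10*, and *Lgals7*, which encodes galectin-7. They were chosen by name, and all 10 were found in both count tables. Single-cell RNA was sequenced from subcutaneous tumors of Lewis lung carcinoma (LLC), a mouse lung carcinoma line, in C57BL/6 mice. The control library (sGC Ctr) came from *Gucy1b1* flox/flox mice, and the other (sGC ∆PC) from mice of the same floxed genotype that also carried Cspg4-CreERT2, a tamoxifen-inducible recombinase driven in cells that express *Cspg4*, pericytes among them. Mice of both groups were 4 weeks old when given tamoxifen (5 doses) and 8 weeks old when inoculated, and their tumors were taken 2 weeks later. The deletion is therefore in host cells, and the inoculated LLC cells carry no recombinase in either group. Each condition is 1 library, pooled from 3 tumors, so that condition and library cannot be told apart, no test was possible, and the intervals given (95%) cover counting error only.

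Keratins are the intermediate filament proteins of epithelial cells. A filament is built from pairs of a type I and a type II keratin, *Krt18* and *Krt8* being the pair of simple, single-layered epithelia, joined in ducts and airways by *Krt19* and *Krt7*. *Krt14* and *Krt5* form the pair of the basal layer of the epidermis, *Krt10* belongs to the layers above it, *Krt17* and *Krt6a* are found in hair follicles and in wounded skin, and galectin-7 is a sugar-binding protein of stratified epithelia. Carcinoma cells often keep the simple keratins of the tissue they came from, whereas a tumor grown under the skin can also bring skin cells into a preparation.

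*Krt8* (mm10, GRCm38, chromosome 15, 101996698 to 102004482, minus strand) and *Krt18* (chromosome 15, 102028180 to 102032027, plus strand) lie 23697 bases apart and point away from each other. *Krt7*, *Krt5* and *Krt6a* are on the same chromosome, *Krt19*, *Krt14*, *Krt17* and *Krt10* are on chromosome 11, and *Lgals7* is on chromosome 7. Since the results turn on the *Krt8* and *Krt18* pair, the 250 bases before their RefSeq starts (GRCm38.p6) are shown, 5′ to 3′ on the strand of each gene, with matches on either strand in capitals to TATAA, the letters of a TATA box, to GGGCG, the core of a GC box, and to TGANTCA, those of an AP-1 site. The region of *Krt8* is chr15:102004343-102004592 and that of *Krt18* is chr15:102027966-102028215. The gene coordinates above are from GENCODE, where both genes start further upstream than in RefSeq. Each window therefore overlaps the gene as given there.
Krt8: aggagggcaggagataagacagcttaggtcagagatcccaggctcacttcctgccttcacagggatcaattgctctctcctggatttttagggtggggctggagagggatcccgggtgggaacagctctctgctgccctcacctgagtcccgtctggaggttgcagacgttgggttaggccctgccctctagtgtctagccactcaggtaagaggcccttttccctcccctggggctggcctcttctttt
Krt18: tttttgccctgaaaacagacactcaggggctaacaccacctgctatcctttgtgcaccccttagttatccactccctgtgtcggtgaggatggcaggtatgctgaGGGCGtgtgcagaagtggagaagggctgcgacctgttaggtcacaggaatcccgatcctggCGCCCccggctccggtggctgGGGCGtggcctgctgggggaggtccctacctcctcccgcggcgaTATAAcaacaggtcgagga
The window of *Krt18* held 1 match to TATAA, 19 bases before the RefSeq start, and 3 matches to GGGCG, between 145 and 63 bases before it. The match to TATAA lies inside the gene as given by GENCODE. That of *Krt8* held none of the letters searched, and no match to TGANTCA was seen in either window. TATAA was found in 22.8% of the 32851 RefSeq windows of this length, while 43.7% held GGGCG and 6.75% held TGANTCA. The letters were chosen after the sequences were seen, and a match is a description of the sequence only. RefSeq windows were at hand for 7 of the 10 genes, *Krt19*, *Krt17* and *Krt6a* being the others. None of the 90-base stretches in the last 500 bases of any of the 10 genes occurred in another gene, so counts at these ends were not shared between keratins by sequence. In the annotation, 6 of the 10 overlap a gene on the opposite strand.

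The sGC Ctr library held 15007 barcodes and 487859656 unique molecular identifiers (UMIs, each standing for 1 captured RNA molecule), and the sGC ∆PC library 25631 barcodes and 436352742 UMIs. After quality filters 12220 and 22498 cells were kept, with medians of 35776 and 8685 UMIs, so that sGC ∆PC cells were shallower. Of the barcode sequences, 131 occurred in both libraries. *Gucy1b1*, the deleted gene, stood at 124 CPM (UMIs scaled to 1e6 per library or set of cells, 94.7 to 161) in 38 pericytes of sGC Ctr and at 41.5 CPM (23.2 to 68.5) in 43 pericytes of sGC ∆PC. Clusters were made with the 10 genes left out and named from markers that are not among them. Cancer cells made up 6 clusters with 6117 and 5828 cells, and 19 clusters with 1792 and 9462 cells (14.7% and 42.1%) could not be named by the marker rule.

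The keratin RNA of these tumors was that of *Krt8* and *Krt18*. Of all UMIs of the 53 keratin genes they held 97.1% (sGC Ctr) and 96.7% (sGC ∆PC). Over all deposited barcodes *Krt18* stood at 341 CPM (339.8 to 343) in sGC Ctr and 282 CPM (280.0 to 283) in sGC ∆PC. *Krt8* stood at 285 CPM (283 to 286) and 243 CPM (242 to 245). The other members were far rarer: *Krt10* at 6.18 and 5.40 CPM, *Krt19* at 4.54 and 4.35, *Lgals7* at 1.24 in both, and *Krt7* at 0.886 and 0.561. *Krt14* stood at 0.654 and 0.669 CPM, *Krt5* at 0.174 and 0.358, *Krt17* at 0.105 and 0.532, and *Krt6a* at 0.0164 and 0.332. Among the 44 other keratin genes, 16 had no UMI in either library and 23 had fewer than 100 in all. *Krt80* (1288 and 1426 UMIs) and *Krt13* (711 and 723) alone passed 1000.

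Cancer cells of every cluster carried both *Krt8* and *Krt18*. A cluster is named here by its leading gene: *Fosb*, *Hist1h1b* (with *Top2a* and *Mki67*, genes of dividing cells), *Mt2* (with *Adm*, *Ndrg1* and *Slc2a1*, genes induced by low oxygen), *Ung*, *Hist1h2ap* and *Mmp3*. In sGC Ctr, *Krt18* ran from 352 CPM in the *Fosb* cluster to 544 CPM in the *Mt2* cluster, a 1.55-fold range. In sGC ∆PC it ran from 277 CPM, again in the *Fosb* cluster, to 434 CPM in the *Ung* cluster. *Krt8* ran from 283 CPM (*Hist1h2ap*) to 429.8 CPM (*Mt2*) in sGC Ctr and from 259.8 CPM (*Hist1h2ap*) to 370.4 CPM (*Ung*) in sGC ∆PC. The highest and the lowest clusters were thus apart by more than their counting intervals, although by less than 2-fold. At least 1 *Krt18* UMI was found in 98.5% of cancer cells of sGC Ctr and 94.6% of those of sGC ∆PC.

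**Figure D1:**
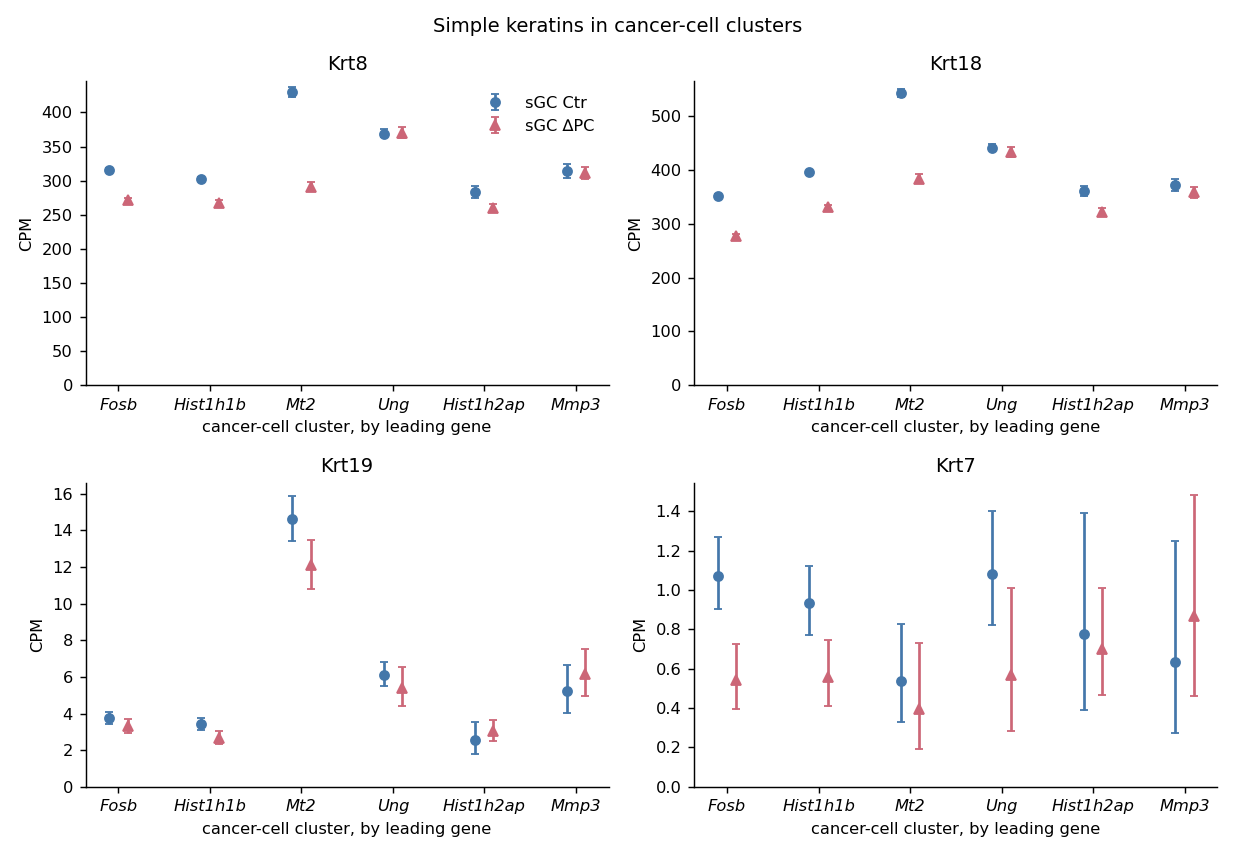
Levels of *Krt8*, *Krt18*, *Krt19* and *Krt7* (CPM) in the 6 cancer-cell clusters, each named by its leading gene, in sGC Ctr (blue circles) and sGC ∆PC (red triangles). Bars are 95% Poisson intervals. *Krt18* is lower in sGC ∆PC in all 6 clusters, and *Krt19* is highest in the *Mt2* cluster, at 14.6 and 12.1 CPM.

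Both members of the pair stood lower in the sGC ∆PC library within most clusters of cancer cells. The log2 ratio of *Krt18* (sGC ∆PC over sGC Ctr) was below 0 in 6 of 6 clusters, with a median of -0.21 and a range of -0.50 to -0.03, and its interval lay below 0 in 4 of them. For *Krt8* the median was -0.15, the range -0.56 to 0.00, and the interval lay below 0 in 4 clusters. The *Mt2* cluster differed most: *Krt18* stood at 544 CPM in sGC Ctr and 384 CPM in sGC ∆PC, and *Krt8* at 429.8 and 291 CPM. In the *Ung* and *Mmp3* clusters, the level of *Krt18* was 442 and 373 CPM in sGC Ctr and 434 and 359 CPM in sGC ∆PC, with intervals of the ratio that reach 0. The median ratio over the 10276 genes compared in the same way was 0.02, with quartiles of -0.05 and 0.12, and 1.87% of these genes had a median below that of *Krt18* and 5.07% one below that of *Krt8*. The position was not particular to the pair: 2.98% had a median below that of *Krt19* (-0.18) and 1.29% one below that of *Krt10* (-0.23). *Rhox5*, a homeobox gene used as a marker of these cancer cells, had a median of -0.05. Of the members with enough UMIs to be compared, *Krt8*, *Krt18*, *Krt19* and *Krt10*, none stood 2-fold apart in the median. A median lower by 2-fold or more was found for 0.00973% of all genes compared, and a higher one for 0.292%. Whether the shift belongs to the host genotype or to 1 library cannot be told apart.

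The ratio within the pair was nearly even across cancer cells. There were between 0.758 and 0.976 *Krt8* UMIs for each *Krt18* UMI in the 12 combinations of cancer-cell cluster and library. The *Fosb* cluster was highest in both libraries, with 0.896 (0.884 to 0.908) in sGC Ctr and 0.976 (0.958 to 0.995) in sGC ∆PC. The *Mt2* cluster of sGC ∆PC was the lowest, with 0.758 (0.735 to 0.781). These values compare UMIs, which count transcript ends and do not scale with transcript length.

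An unnamed cluster led by *Ptn*, *Dcn* and *Aspn*, genes of matrix-producing cells, kept *Rhox5* while holding much less keratin. It counted 791 cells of sGC Ctr and 385 of sGC ∆PC. *Rhox5* stood at 508 and 477 CPM there, but *Krt18* at 110.1 CPM (106 to 114) and 116 CPM (109.5 to 123), which is 31.3% and 41.9% of its level in the lowest cancer-cell cluster of the same library. *Krt8* stood at 132 and 119.8 CPM, and there were 1.20 (1.14 to 1.26) and 1.03 (0.952 to 1.12) *Krt8* UMIs for each *Krt18* UMI, more than in any cancer-cell cluster, although the interval in sGC ∆PC reaches that of the *Fosb* cluster. *Krt19*, at 0.579 and 0.586 CPM, was also below its level in each of the 6 cancer-cell clusters. Markers of fibroblasts were called in this cluster, and what share of its RNA comes from a second cell was not tested. Over all unnamed clusters with at least 50 cells, *Krt18* ranged from 110.1 to 469 CPM in sGC Ctr (6 clusters) and from 103 to 372 CPM in sGC ∆PC (10 clusters), so the *Ptn* cluster was not the lowest in sGC ∆PC. A shallow cluster led by *Gm26917* (medians of 1678 and 1858 UMIs) stood near it, with 117 CPM (56 UMIs) and 103 CPM (55 UMIs) of *Krt18*. There *Rhox5* was low too, at 177 and 201 CPM, giving 65.9 and 51.4 *Krt18* UMIs for every 100 of *Rhox5*, against 21.7 and 24.3 in the *Ptn* cluster. Summed with *Hmga2*, a second marker of the cancer cells, it nevertheless reached 153% of the cancer-cell level, against 75.6% in the *Ptn* cluster. The contrast between these clusters thus holds for *Rhox5* alone.

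*Krt19*, the simple keratin without a tail domain, varied most among the states of the cancer cells. In sGC Ctr it ran from 2.54 CPM in the *Hist1h2ap* cluster to 14.6 CPM in the *Mt2* cluster, a 5.75-fold range. In sGC ∆PC the range was 4.57-fold, from 2.65 CPM in the *Hist1h1b* cluster to 12.1 CPM in the *Mt2* cluster. The cluster with low-oxygen genes was thus the highest in both libraries. Its median log2 ratio between libraries was -0.18, and 4 of 6 clusters were lower in sGC ∆PC. *Krt7* was scarce in all clusters, at 0.535 to 1.08 CPM in sGC Ctr and 0.397 to 0.868 CPM in sGC ∆PC, with a median log2 ratio of -0.59 over 6 clusters. Since it had fewer UMIs than the genes compared above, its ratio rests on 350 and 152 UMIs in all. *Krt10* was nearly even across cancer cells, with a highest to lowest ratio of 1.21 in sGC Ctr (5.93 to 7.20 CPM) and 1.37 in sGC ∆PC (4.57 to 6.27 CPM) and a median log2 ratio between libraries of -0.23.

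The cancer cells held the simple keratin pair with little RNA of the listed genes of epithelial identity, while genes of desmosomes and keratin anchors varied widely. Of 10 genes of epithelial identity, none had enough UMIs in all clusters to be compared. *Epcam*, an adhesion molecule of epithelia, stood at 0.0379 CPM (14 UMIs) in the cancer cells of sGC Ctr and 0.00380 CPM (1 UMI) in those of sGC ∆PC. Of the 14 UMIs, 12 lay in 1 barcode rich in epidermal keratins, described below, that was placed in a cancer-cell cluster. *Cdh1*, which encodes E-cadherin, stood at 0.0542 and 0.156 CPM. The tight junction gene *Ocln* was the highest of the list, at 1.44 and 1.5 CPM. Among 13 genes of desmosomes and keratin anchors, 5 could be compared, with a median log2 ratio of 0.03 and none past 2-fold. The cytolinkers *Plec* (314 CPM in both libraries) and *Dst* (223 and 237 CPM) were abundant. *Pkp2* stood at 9.56 and 8.96 CPM, *Pkp3* at 4.52 and 4.41, *Itgb4* at 3.88 and 3.92, *Jup* at 1.89 and 2.17 and *Ppl* at 1.65 and 1.63. *Pkp1*, *Evpl*, *Dsc2* and *Perp* stood at 0.0874 CPM or lower. Desmoplakin (*Dsp*), which ties keratin to desmosomes, stood at 0.0325 and 0.00380 CPM, and *Dsg2* had no UMI in any cancer cell. Of the 12 *Dsp* UMIs of sGC Ctr, 6 lay in the barcode that held most of the *Epcam* UMIs. Of the other intermediate filament genes, *Vim* stood at 3694 and 3758 CPM, *Lmna* at 484 and 505 and *Nes* at 94.2 and 82.7. In that list 5 of 7 genes could be compared, with a median of 0.05 and none past 2-fold.

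The lists of genes that mark states of the cancer cells each had a median above that of all genes compared. The medians of the log2 ratio were 0.16 for 8 hypoxia genes, 0.28 for 8 genes of G2 and mitosis, 0.09 for 8 genes of G1 and S phase, 0.10 for 5 mesenchymal genes and 0.23 for *Igfbp6*, *Clu* and *Scara5*, against 0.02 for all genes compared. Single genes stood on both sides, *Ptn* with -0.47 and *Igfbp6* with -0.45 among the lowest and *Scara5* with 0.56 and *Vegfa* with 0.44 among the highest, and none passed 2-fold in either direction.

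*Krt8* and *Krt18* were also counted in cells that are not epithelial, and over whole classes of immune cells their levels were roughly in step with *Rhox5*. Macrophages held 26.6 CPM of *Krt18* in sGC Ctr and 37.3 CPM in sGC ∆PC, which is 6.64% (6.18 to 7.13) and 11.4% (10.7 to 12.1) of the level in cancer cells. For every 100 *Rhox5* UMIs there were 60.5 and 52.3 *Krt18* UMIs in cancer cells. The same ratio was 57.1 (52.2 to 62.4) and 46.2 (42.8 to 50.0) in macrophages, 45.7 and 40.2 in granulocytes, and 50.0 and 63.5 in T cells, so that *Krt18* and *Rhox5* were low together in immune cells. *Krt8* gave 49.8 and 44.7 UMIs for every 100 of *Rhox5* in cancer cells, and 60.3 (55.2 to 65.8) and 47.0 (43.5 to 50.7) in macrophages. *Hmga2*, another marker of the cancer cells, gave 67.9 and 79.9 UMIs for every 100 of *Rhox5* in them. It gave 116 and 107 in macrophages, 99.3 and 119 in granulocytes, and 90.4 and 119 in T cells. Measured against *Hmga2*, *Krt18* was thus lower in these immune classes than in cancer cells, although no interval was made for this ratio. In T cells it rests on only 26 and 40 *Krt18* UMIs beside 47 and 75 of *Hmga2*, so a difference there cannot be told from counting error. Cells with little cancer-cell RNA were then chosen as those whose summed *Rhox5* and *Hmga2* level was under 25% of that in cancer cells. In such macrophages *Krt18* still stood at 24.9 and 27.9 CPM, with *Rhox5* at 36.9 and 36.1 CPM, or 67.4 and 77.3 *Krt18* UMIs for every 100 of *Rhox5*. The step was not kept in such granulocytes, which had 31 and 44 *Krt18* UMIs (54.6 and 66.6 CPM) beside 2 and 5 of *Rhox5*, nor in such T cells, with 129 and 193 *Krt18* UMIs for every 100 of *Rhox5*. Since low *Rhox5* chose these cells, a higher ratio in them follows in part from the choice. Whether the keratin RNA came from outside the immune cells or was made in them was not tested.

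**Figure D2:**
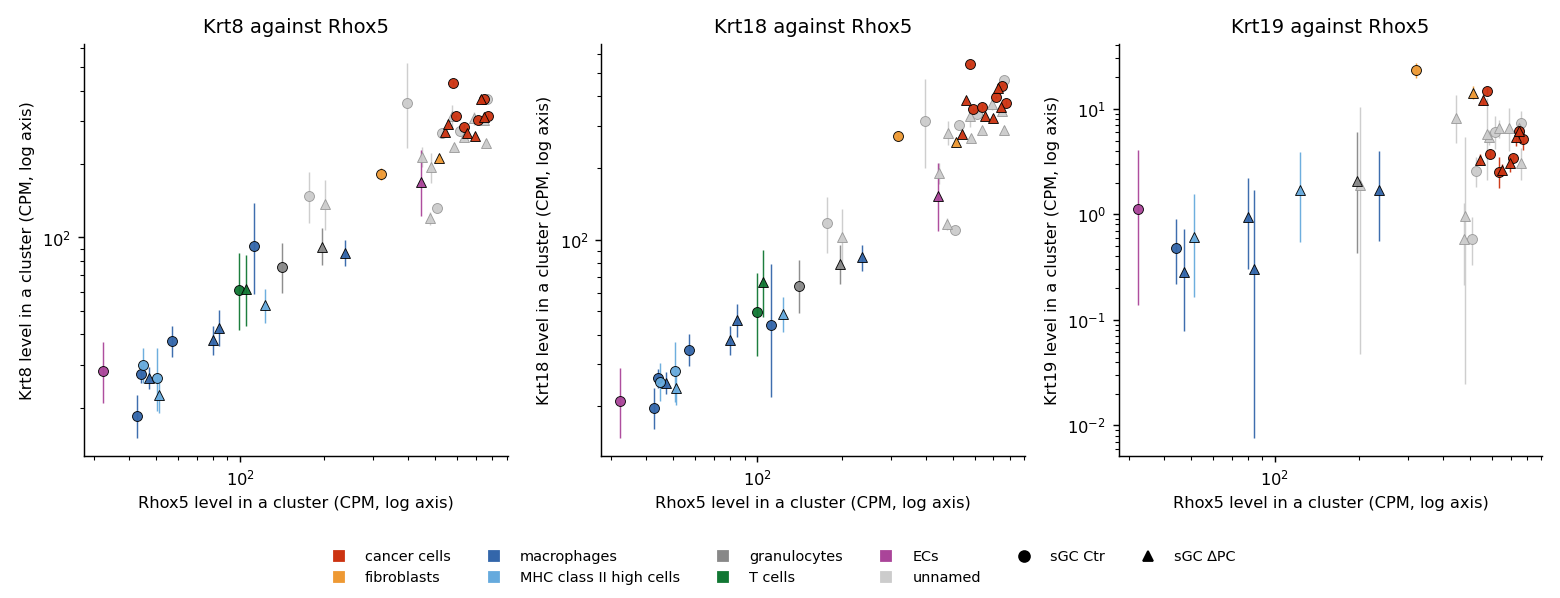
Levels of *Krt8*, *Krt18* and *Krt19* against that of *Rhox5* (CPM, log axes) in every cluster with at least 50 cells and at least 1 UMI of the keratin, by class (color) and library (circles, sGC Ctr; triangles, sGC ∆PC), with 95% Poisson intervals. *Krt8* and *Krt18* rise with *Rhox5* from immune cells to cancer cells, and the 2 points of the fibroblast cluster, at 23.3 and 14.2 CPM, stand highest for *Krt19* in each library.

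The share of cells with a *Krt18* UMI depended on depth. Without adjustment it was 23.3% in macrophages of sGC Ctr (median 9774 UMIs) and 19.4% in those of sGC ∆PC (3907 UMIs), against 98.5% and 94.6% in cancer cells (54032 and 40435 UMIs). With every cell thinned to 2000 UMIs, 47.7% and 44% of cancer cells had a *Krt18* UMI, 5.69% and 8.02% of macrophages, and 10.0% and 15.0% of T cells. Shallower cells had to be left out, 57 and 1176 macrophages, 52 and 63 T cells and 0 and 9 cancer cells. The thinned share of macrophages was thus higher in sGC ∆PC, as was the level, whereas the unthinned share was lower. Different clusters made up this class in each library: a shallow cluster led by *Wfdc17*, with *Rhox5* at 112 and 237 CPM, held 72 of 2695 macrophages of sGC Ctr (2.67%) but 1523 of 3796 of sGC ∆PC (40.1%). Without it, a choice made after seeing the data, *Krt18* stood at 26.4 CPM (24.6 to 28.4) and 31.2 CPM (28.9 to 33.6), 6.61% and 9.52% of the level in cancer cells, and the thinned shares were 5.64% and 6.88%. Within the *Ms4a7* cluster, the largest of macrophages in sGC Ctr, the level was 26.3 and 25.1 CPM (496 and 351 UMIs). The higher level that sGC ∆PC kept without the *Wfdc17* cluster thus lay in the other macrophage clusters, led by *Thbs1* and *Acp5*. These held 164 and 105 *Krt18* UMIs in sGC Ctr and 202 and 152 in sGC ∆PC.

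The vessel cells stood near this level. *Krt18* stood at 14.8 CPM (7 UMIs) in pericytes of sGC Ctr and at 41.5 CPM (15 UMIs) in those of sGC ∆PC, and endothelial cells had 22.5 and 44.3 CPM. In endothelial cells with little cancer-cell RNA the values were 22.6 CPM (16.1 to 30.7) and 20.6 CPM (13.1 to 30.9), with overlapping intervals. *Krt7* and *Lgals7* had no UMI in pericytes of either library (up to 7.78 and 10.2 CPM), and *Krt7* none in endothelial cells (up to 2.07 and 2.82 CPM). These limits lie above the levels in cancer cells, 0.948 and 0.578 CPM for *Krt7* and 0.366 and 0.384 CPM for *Lgals7*. So few cells cannot show that the genes are absent.

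Fibroblasts held more *Krt19* than any other named class. The level was 23.3 CPM (19.7 to 27.3) in sGC Ctr and 14.2 CPM (12.3 to 16.4) in sGC ∆PC, against 5.09 and 4.21 CPM in cancer cells. This class also held much *Rhox5*, at 319 and 514 CPM, against 661 and 626 CPM in cancer cells. Summed with *Hmga2*, *Rhox5* reached 67.0% of the cancer-cell level, so values of the whole class are not those of fibroblast RNA alone. *Krt19* gave 7.31 and 2.77 UMIs for every 100 of *Rhox5*, against 0.770 and 0.673 in cancer cells. For *Krt18* the same ratio in fibroblasts was 85.3 (80.0 to 90.9) and 50.1 (48.1 to 52.2), against 60.5 and 52.3 in cancer cells. *Krt19* was thus further from its ratio in cancer cells than *Krt18*, which was itself above that ratio in sGC Ctr. Fibroblasts with little cancer-cell RNA numbered 130 of 178 and 238 of 843. In them *Krt19* stood higher still, at 41.9 CPM (34.8 to 50.0) in sGC Ctr and 37.9 CPM (30.4 to 46.5) in sGC ∆PC, while *Krt18* stood at 17.2 and 40.4 CPM. The *Krt19* UMIs came from few cells: 19 and 20 of the fibroblasts low in cancer-cell RNA held all of them, 14.6% and 8.40%.

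Fibroblasts with a *Krt19* UMI held more RNA of low-oxygen genes than those without. Over all fibroblasts the 8 hypoxia genes summed to 1416 CPM (1362 to 1472) in the 32 cells with *Krt19* of sGC Ctr, against 600.4 CPM (579 to 623) in the 146 without, and to 948 CPM (916 to 982) in 91 cells of sGC ∆PC, against 535 CPM (521 to 549) in 752. In sGC Ctr these 32 cells also held more *Rhox5* (441 against 272 CPM) and less *Col1a1* (3652 against 6308 CPM). The part of cancer-cell RNA in this gap was not tested. The gap was wider among fibroblasts low in cancer-cell RNA, with 3907 CPM (3734 to 4086) in the 19 cells with a *Krt19* UMI of sGC Ctr and 736 CPM (702 to 771) in the 111 without. In sGC ∆PC the sums were 3584 CPM (3409 to 3766) in 20 cells and 761 CPM (723 to 801) in 218. *Ndrg1* gave the largest part, with 1787 against 215 CPM in sGC Ctr and 1371 against 191 CPM in sGC ∆PC, and *Vegfa*, the growth factor of blood vessels, stood at 653 against 188 and 743 against 211 CPM. In these fibroblasts low in cancer-cell RNA *Col1a1*, the main collagen gene of fibroblasts, differed in opposite directions in the libraries. In cells with a *Krt19* UMI it was lower in sGC Ctr, at 8426 CPM (8170.5 to 8687) against 10002 CPM (9876 to 10128). In sGC ∆PC it was higher in them, at 10503 against 8572 CPM. *Rhox5*, by which these cells were chosen, stood at 22.5 to 54.9 CPM. Cells with a UMI were deeper, with medians of 24761 against 19930 UMIs in sGC Ctr and 21580.5 against 3560.5 in sGC ∆PC, and the part of depth was not tested. Within cancer cells of the *Mt2* cluster, cells with and without *Krt19* stood at 1271 and 1292 CPM in sGC Ctr and 1479 and 1224 CPM in sGC ∆PC. The cells were chosen by *Krt19* after its level had been seen, and no test over cells was made.

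**Figure D3:**
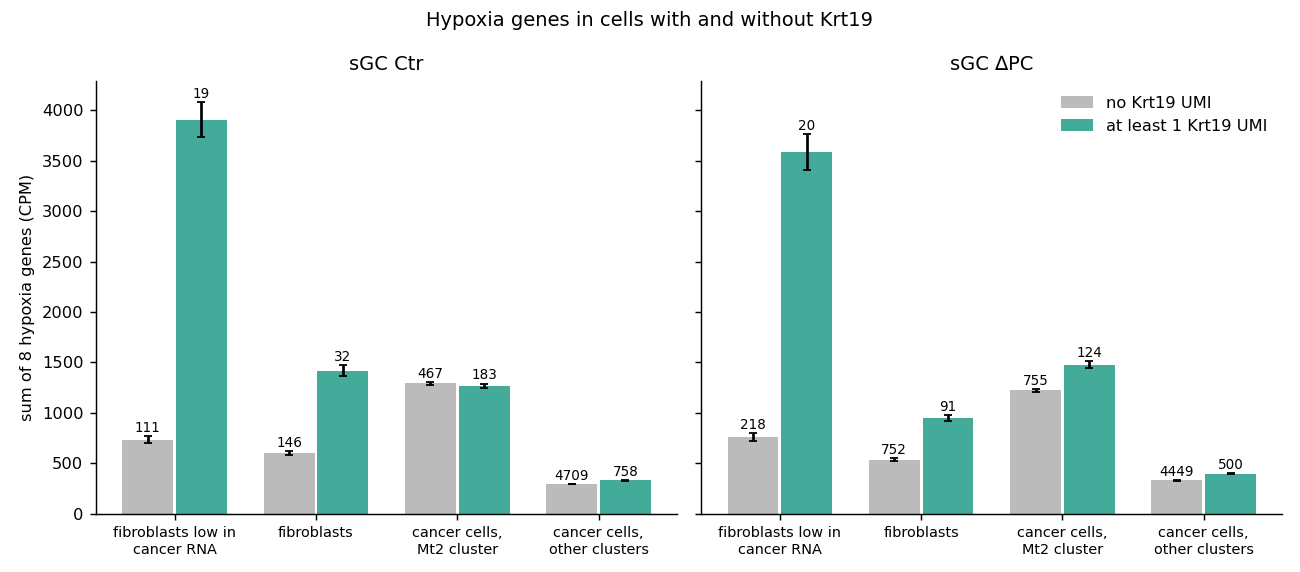
Summed level of 8 hypoxia genes (CPM, bars from 0, with 95% Poisson intervals) in cells with no *Krt19* UMI (grey) and with at least 1 (green), in 4 sets of cells and both libraries; the number of cells stands above each bar. In fibroblasts low in cancer RNA the sum is 3907 against 736 CPM in sGC Ctr and 3584 against 761 CPM in sGC ∆PC.

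*Krt10* was found outside the cancer cells too, and not in step with *Rhox5*. It stood at 6.41 and 5.70 CPM in cancer cells, 3.46 and 3.44 CPM in macrophages and 14.2 and 8.42 CPM in fibroblasts. In fibroblasts low in cancer-cell RNA it stood at 21.6 and 10.9 CPM. For every 100 *Rhox5* UMIs there were 0.970 and 0.910 *Krt10* UMIs in cancer cells but 7.43 (6.01 to 9.10) and 4.27 (3.41 to 5.29) in macrophages and 4.47 and 1.64 in fibroblasts. Pericytes held 11 *Krt10* UMIs in sGC Ctr, or 23.2 CPM (11.6 to 41.5), and 2 in sGC ∆PC, or 5.54 CPM (0.671 to 20), with overlapping intervals. No barcode held more than 7 *Krt10* UMIs, so this gene of the upper epidermis was spread thinly over 2364 and 2019 barcodes. A gene on the opposite strand overlaps it.

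The remaining epidermal keratins were held by a handful of barcodes. Of all *Krt14* UMIs the single richest barcode held 64.3% (sGC Ctr) and 54.8% (sGC ∆PC). The barcode richest in each of the others held 58.8% and 40.9% of *Krt17*, 50% and 66.9% of *Krt6a* (8 and 145 UMIs in all), 36.5% and 48.1% of *Krt5* and 45.4% and 55.5% of *Lgals7*. In sGC ∆PC it was the same barcode for all 5 genes. In sGC Ctr 1 barcode was the richest in *Krt14* and *Lgals7* and another in *Krt17*, *Krt6a* and *Krt5*. By contrast the richest barcode held 0.180% and 0.133% of *Krt18* and 0.232% and 0.255% of *Krt10*. The 100 richest barcodes held all UMIs of the former 4 keratins, but 8.09% and 7.25% of those of *Krt18*. For *Krt5*, *Krt17* and *Krt6a* of sGC Ctr, with 85, 51 and 8 UMIs in all, this follows from the counts alone.

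**Figure D4:**
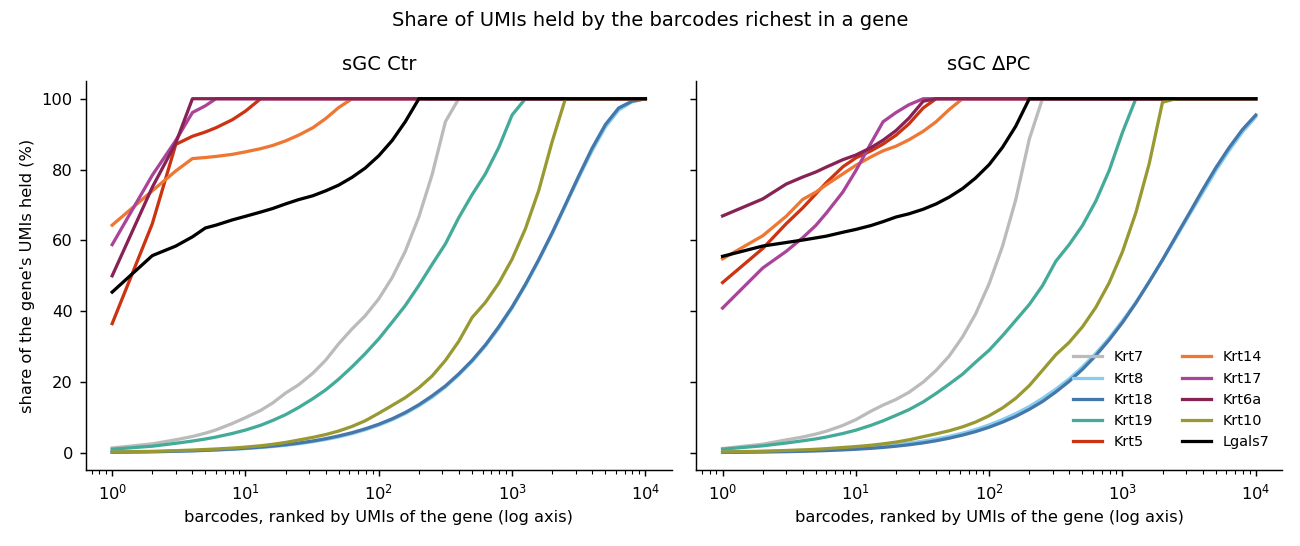
Share of the UMIs of each gene (%) held by the barcodes richest in it, by rank (log axis), in all deposited barcodes of each library. The curves of *Krt5*, *Krt14*, *Krt17* and *Krt6a* reach 100% within 100 barcodes, that of *Lgals7* starts near them, and those of *Krt8* and *Krt18* rise over more than 1000 barcodes. In sGC Ctr *Krt5*, *Krt17* and *Krt6a* had fewer than 100 UMIs, so their curves must end there.

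Barcodes with at least 10 UMIs of *Krt5*, *Krt14*, *Krt17*, *Krt6a* and *Krt10* summed were called keratin-rich. There were 4 among the 15007 barcodes of sGC Ctr (0.0267%, 0.00726 to 0.0682) and 16 among the 25631 of sGC ∆PC (0.0624%, 0.0357 to 0.101), of which 3 and 12 passed the quality filters. The intervals overlap. The lowest sums inside the threshold were 40 and 10 UMIs and the highest outside it were 7 and 6, and all of the 5 and 3 barcodes with 5 to 9 UMIs held *Krt10* only. The keratin-rich barcodes held 89.4% and 85.9% of all *Krt5* UMIs, 83.1% and 84.9% of *Krt14*, 96.1% and 93.5% of *Krt17*, 75% and 84.1% of *Krt6a* and 53.2% and 63.5% of *Lgals7*, but no UMI of *Krt10*, *Krt19* or *Krt7*. High shares of the keratins summed for the choice follow in part from it, whereas *Lgals7* played no part in it.

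As a group, these barcodes also held genes of keratinocytes that played no part in choosing them. A list of 12 such genes, none of them a member (among them *Trp63*, the transcription factor of basal epidermis, and *Sfn*, an epidermal 14-3-3 protein), summed to 2129.8 CPM in the keratin-rich barcodes of sGC Ctr and 3568 CPM in those of sGC ∆PC, against 8.90 and 9.02 CPM in all others. A single barcode held much of each sum, 230 of 313 UMIs in sGC Ctr and 118 of 186 in sGC ∆PC, and without it the sums were 680.1 CPM (542 to 843) over 3 barcodes and 2019 CPM (1568 to 2559) over 15. At least 3 of the 12 genes were detected in 4 of 4 and 6 of 16 keratin-rich barcodes, and in 5 of 15003 and 6 of 25615 others. The number found in a single keratin-rich barcode ran from 5 to 10 in sGC Ctr and from 0 to 9 in sGC ∆PC. *Rhox5* stood at 252 and 115 CPM in them, against 584 and 564 CPM in the rest. In sGC Ctr 32 of the 37 *Rhox5* UMIs lay in 1 barcode that was placed in a cancer-cell cluster, and the other 3 barcodes stood at 71.6 CPM (23.2 to 167). *Krt8* stood at 157 and 95.9 CPM in the keratin-rich barcodes, against 285 and 243 CPM in the rest, and *Krt18* at 116 and 57.6 CPM, against 342 and 282 CPM. These levels rest on 23 and 17 UMIs over the 4 barcodes of sGC Ctr and 5 and 3 over the 16 of sGC ∆PC. Of those of sGC Ctr, 13 of *Krt8* and 12 of *Krt18* lay in the barcode placed in a cancer-cell cluster.

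The richest barcode of each library had a profile of its own. That of sGC Ctr had 24919 UMIs in all, among them 205 of *Krt14*, 274 of *Lgals7* and 454 of *Krt79*, a keratin of hair follicles and sebaceous glands, but only 2 of *Krt5*. With 18.1% mitochondrial UMIs it did not pass the filters. That of sGC ∆PC had 18442 UMIs, with 75 of *Krt5*, 160 of *Krt14*, 95 of *Krt17*, 97 of *Krt6a*, 299 of *Lgals7* and 85 of *Krt79*, and it passed and was placed in the T cell cluster. Without it the 169 other T cells of sGC ∆PC held no UMI of the 4 epidermal keratins (up to 6.32 CPM each) and 4 of *Lgals7*. The other 3 of sGC Ctr held 11 to 31 *Krt14* UMIs with 15 or 16 of *Lgals7*, and *Krt5* was at or above *Krt17* in each.

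**Figure D5:**
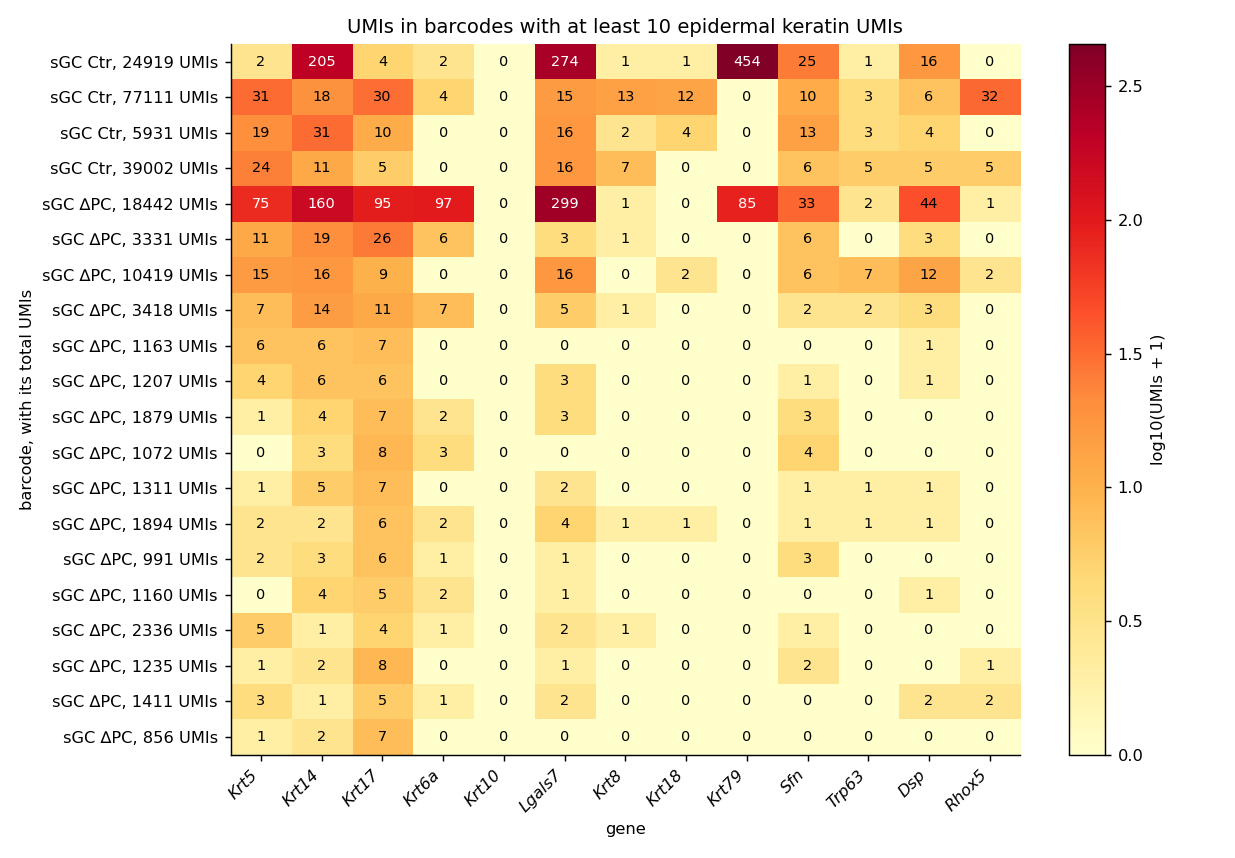
UMIs of epidermal keratins, *Lgals7*, simple keratins, keratinocyte genes and *Rhox5* in the 20 keratin-rich barcodes (rows, with library and total UMIs); the color shows log10(UMIs + 1) and each cell gives the count. *Krt10* is 0 in all 20, and 1 barcode of each library holds 274 or 299 *Lgals7* UMIs.

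The keratin-rich barcodes of the libraries differed in depth. In sGC Ctr their median was 31960.5 UMIs (5931 to 77111), and none lay under 2000. The median in sGC ∆PC was 1361 UMIs (856 to 18442), and 11 of 16 lay under 2000, where *Krt17* had 5 to 8 UMIs and was the highest of the 4 keratins in 10 barcodes and level with *Krt14* in 1. When the barcodes of a library were ordered by depth and cut into 10 equal bins, the 4 keratins together stood at 43.1, 13.1 and 15.2 CPM in the 3 shallowest bins of sGC ∆PC and at 0.107 CPM in the deepest. The eighth bin of sGC ∆PC stood at 9.15 CPM, and at 0.189 CPM without its 1 keratin-rich barcode. In sGC Ctr the highest bins were the third, with 7.55 CPM, and the sixth, with 4.78 CPM, each again with 1 keratin-rich barcode and at 0.581 and 0.131 CPM without it. In sGC ∆PC the 3 shallowest bins were thus the highest. Whether the shallow barcodes are cells, parts of cells or RNA outside cells was not tested.

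Outside the keratin-rich barcodes, the epidermal keratins other than *Krt10* were at the limit of counting. *Krt14* had 54 and 44 UMIs left, 0.111 and 0.101 CPM, and no barcode held more than 2. *Krt5* had 9 and 22, *Krt17* 2 and 15 and *Krt6a* 2 and 23. With these barcodes left out, the log2 ratio of *Krt14* between libraries was -0.13 (-0.74 to 0.47), where it had been 0.03 (-0.20 to 0.27). *Krt6a* kept a log2 ratio of 3.68 (1.67 to 6.81), from 2 and 23 UMIs, against 4.34 (3.32 to 5.58) with all barcodes, and *Krt17* one of 3.07 (0.96 to 6.24) against 2.35 (1.90 to 2.81). Without the keratin-rich barcodes the 4 keratins still stood at 4.57 (2.28 to 8.18), 1.64 (0.658 to 3.37) and 0.773 CPM (0.284 to 1.68) in the 3 shallowest bins of sGC ∆PC. These values rest on 11, 7 and 6 UMIs. The same bins of sGC Ctr stood at 3.12 (0.850 to 7.99), 1.39 (0.452 to 3.25) and 0.581 CPM (0.189 to 1.36), against 0.0851 CPM in its deepest bin. They rest on 4, 5 and 5 UMIs. With these barcodes left out, the 3 shallowest bins thus had the highest values in both libraries. The third bin was not apart from all deeper ones by its counting interval. In sGC ∆PC it overlapped the sixth, at 0.592 CPM (0.324 to 0.994). In sGC Ctr it overlapped the fourth, at 0.280 CPM (0.0762 to 0.716).

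*Lgals7* had a second, diffuse part. A barcode of sGC Ctr held 62 *Lgals7* UMIs among 1255, with 42 of *Fabp5*, a fatty acid binding protein of epidermis and other cells, but no *Krt14*. The other 220 UMIs of sGC Ctr lay in 192 barcodes, with at most 5 in 1, and 197 UMIs of sGC ∆PC in 187 barcodes, with at most 3. Fibroblasts low in cancer-cell RNA stood at 11.7 CPM (8.08 to 16.3) and 8.41 CPM (5.14 to 13.0) of *Lgals7*, above the 0.366 and 0.384 CPM of cancer cells. Macrophages were low too, at 0.650 and 0.391 CPM. T cells without the keratin-rich barcode stood at 9.55 and 6.85 CPM, from only 5 and 4 UMIs. Their intervals overlap those of the fibroblasts in both libraries, so a level particular to fibroblasts was not shown. The 19 and 20 fibroblasts low in cancer-cell RNA with a *Krt19* UMI held 1 and 3 *Lgals7* UMIs, against 33 and 17 in those without. In sGC Ctr the levels were 2.05 CPM (0.0518 to 11.4) and 13.6 CPM (9.36 to 19.1), and in sGC ∆PC 6.86 CPM (1.41 to 20) and 8.76 CPM (5.11 to 14.0). The intervals overlap in both libraries, in sGC Ctr only narrowly. Overlap cannot show that the levels are equal, and a difference in *Lgals7* between fibroblasts with and without *Krt19* was not tested. Over all deposited barcodes the log2 ratio of *Lgals7* was -0.00 (-0.17 to 0.17), and without the keratin-rich barcodes -0.36 (-0.63 to -0.09). The barcode with 62 UMIs carried that difference: with it left out too, a choice made after seeing the data, the level was 0.451 CPM in sGC Ctr and 0.452 CPM in sGC ∆PC, and the log2 ratio 0.00 (-0.28 to 0.29).

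Across 48 profiles of clusters with at least 50 cells in each library, the genes most like each member were found by Pearson correlation of log2(CPM + 1) among 11811 genes. *Krt8* and *Krt18* were each the nearest to the other (r = 0.985). *Rhox5* (0.966) and *Rbp4* (0.966), a retinol carrier, followed for *Krt8*, and *Rbp4* (0.978) and *Rhox5* (0.968) for *Krt18*. *Krt19* was nearest to *Fkbp11* (0.818), *Pycr1* (0.813) and *Adm2* (0.810), and *Krt10* to *Immp2l* (0.839), *Mterf4* (0.821) and *Tmem115* (0.817). The profiles share 2 libraries and the RNA outside cells in each, and the correlations are a description.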

How the data were processed

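The series holds 2 libraries (10x Chromium 3′ RNA), both made from cells pooled from 3 tumors. The authors aligned reads to mm10 with Cell Ranger 6.1.1, and the UMI count they deposited for every barcode was used unchanged; all values were whole numbers. Levels are sums of UMIs scaled to 1e6 (CPM) with exact Poisson intervals, shares have exact binomial intervals, and ratios exact conditional intervals, all at 95%. A count of 0 allows up to 3 UMIs, or 0.00615 and 0.00688 CPM over all barcodes of sGC Ctr and sGC ∆PC.

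Barcodes were kept as cells when mitochondrial UMIs made up less than 10% and when both their UMIs and their genes lay no more than 3 median absolute deviations from the library median on the log scale. The tools were scanpy 1.11.5 and leidenalg 0.10.2 for clusters, with igraph 0.11.9 and scikit-learn 1.9.0, scipy 1.17.1 and numpy 2.4.6 for intervals, and matplotlib 3.10.9, under Python 3.11.15. Counts were scaled to 10000 per cell, 3000 variable genes without the 10 members gave 20 components, libraries were joined by mutual nearest neighbors (20), and Leiden clusters were found (15 neighbors, resolution 1.0). A cluster with markers of both ECs and pericytes was split at resolution 0.3. A class was called if 3 or more of its markers, and 50% of them, were present in 25% of the cells with a level of at least 25% of the best cluster. Clusters without a call or with conflicting calls were left unnamed, as were shallow ones with no marker of the called class among their 10 leading genes. Classes other than cancer cells needed 3 such leading markers where summed *Rhox5* and *Hmga2* reached 50% of the cancer-cell level. The name cancer cells was withheld where 3 leading genes were markers of another class or osteoclast genes. Details of this rule were set after the clusters were seen. Clusters of cancer cells with at least 50 cells in each library were compared, for genes with at least 50 UMIs over both libraries in every such cluster, with a pseudocount of 0.5 for the ratios over all genes. Scrublet called 525 doublets (4.30%) in sGC Ctr and 0 in sGC ∆PC, where it had not worked, so doublets were left in.

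The members, the gene lists and the markers were chosen with earlier results of these data known. The genes named are the members, those of the lists, other keratins with at least 1000 UMIs, and the 3 genes most like each member that has 1000 UMIs. *Gucy1b1*, *Col1a1*, *Krt79* and *Fabp5* were added after their values were seen, as was the leading gene of each cluster. Promoter windows are from RefSeq (GRCm38.p6), coordinates of genes from GENCODE on GRCm38. Intervals were tested on simulated data. Alternatives covered filters, doublets, clustering, weighting of cells and depth.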

Additional observations from a re-analysis of the deposited data

How the results depend on the processing

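The log2 ratios of *Krt8*, *Krt18*, *Krt7* and *Krt19* between libraries in cancer-cell clusters were below 0 under all alternatives run, at -0.22 to -0.14 for *Krt8* (9 alternatives), -0.33 to -0.20 for *Krt18* (9), -0.90 to -0.49 for *Krt7* (8) and -0.31 to -0.01 for *Krt19* (8). *Krt18* (-0.21) became -0.25 without the filter by median deviation, at resolution 0.5 and with the members among the variable genes, -0.27 at resolution 2.0, -0.28 with mitochondrial UMIs under 5%, and -0.33 without Scrublet doublets and without correction between libraries, and *Krt8* (-0.15) became -0.22 in the last 2 settings. The level of *Krt18* in macrophages as a share of that in cancer cells was 7.78% in sGC Ctr and 18.3% in sGC ∆PC as a mean over cells, against 6.64% and 11.4%. In sGC Ctr the highest value was 8.88%, without the filter by median deviation, 7.75% at resolution 0.5, 6.14% at resolution 2.0 and 6.08% with the members among the variable genes. In sGC ∆PC these were 12.5%, 13.2% and 10.1% for the first 3, and 9.62% with mitochondrial UMIs under 5%, 13.3% without Scrublet doublets and 8.01% without correction. The share was higher in sGC ∆PC under each of these settings. Kept keratin-rich cells numbered 3 and 12. They became 1 and 4 with mitochondrial UMIs under 5%, 8 in sGC Ctr with a threshold of 5 UMIs, 3 in sGC ∆PC with a threshold of 20 UMIs, and, chosen after seeing the data, 4 and 16 over all deposited barcodes. Levels over kept cells moved by over 1.5 times for *Krt5*, *Krt14*, *Krt17*, *Krt6a* and *Lgals7* and for no other member: with all deposited barcodes *Krt14* went from 0.231 to 0.654 CPM and *Lgals7* from 0.544 to 1.24 CPM in sGC Ctr, since the barcode richest in both did not pass the filters, and without the keratin-rich cells *Krt17* went from 0.493 to 0.0340 CPM in sGC ∆PC. The causes of the other moves were not tested.

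No paired analysis was possible because each condition has 1 library. The depth limits *Krt5*, *Krt14*, *Krt17* and *Krt6a* most, since outside a few barcodes they rest on 2 to 54 UMIs in a library. The variation between tumors cannot be seen in pooled libraries.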
